A study of Homo sapiens with 6 samples.

Results

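RNA-seq was used to describe the MYC, MAX and MLX transcription factor network in NB4 cells, a human acute promyelocytic leukemia line that carries the PML-RARa fusion. The network is represented by 10 genes of the 18625 listed in the table: the activator MYC, the dimerization hubs MAX and MLX, the repressors MXD1, MXD3, MXD4, MXI1 and MNT, the large MAX partner MGA, and the MLX partner MLXIPL. They were picked by gene symbol, and the set was chosen with the Tan I against DMSO values of these same libraries known, so their values are a description and carry no test. All 10 had a mean of at least 10 normalized counts over the 6 libraries and so remained in the fit of 16887 genes. One group of cells was given DMSO, the solvent, and the other 10 μM Tan I (Tanshinone I), a tanshinone tested by the study as an inhibitor of the histone methyltransferase EZH2. Both groups were kept for 3 days and hold 3 libraries each from this single cell line, and the labels do not say whether the replicates were separate cultures, so the spread between them may be technical. The comparison asks how transcription in leukemia cells differs after exposure to Tan I.

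Proteins of this network bind DNA as pairs through a basic helix-loop-helix leucine zipper. MYC needs MAX as its partner to bind the E-box CACGTG and activate genes of growth and ribosome production, whereas the MXD proteins, MXI1 and MNT compete for MAX and recruit SIN3 and histone deacetylases to the same sites. MLX forms the parallel branch with MLXIP (MondoA) and MLXIPL (ChREBP), which respond to glucose, and in myeloid cells the passage from proliferation to maturation is known for an exchange of MYC-MAX for MXD-MAX pairs.

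The promoter sequence of network genes was examined for the E-box that the network itself reads. RefSeq windows on GRCh38.p14, limited here to the 250 bases before each annotated start, were read for 9 of the 10 genes, in 14 windows. Windows of MYC were left out and are not reported here. The 6 letters CACGTG, which read the same on both strands, were found in windows of 3 of the 9 genes, and in 6.34% of the 35116 windows and 7.73% of the 27305 genes in the table. The motif began 238 bases upstream of the start in MXD4, 193 bases in MNT and 50 bases in MLX. A match is a description of these letters and does not show that a factor is bound there. The stretches of 100 bases that hold the motif are printed because MXD4, MNT and MLX are network genes that carry the network's own recognition letters, and the one of MLXIPL because it is the member with the lowest ratio of Tan I to DMSO and has no CACGTG in its window. Each is written 5′ to 3′ on the strand of the gene, with CACGTG in capitals. The stretch of MXD4 lies at chr4:2262260-2262359 on the minus strand, that of MNT at chr17:2401201-2401300 on the minus strand, that of MLX at chr17:42566972-42567071 on the plus strand, and that of MLXIPL at chr7:73624544-73624643 on the minus strand.
MXD4: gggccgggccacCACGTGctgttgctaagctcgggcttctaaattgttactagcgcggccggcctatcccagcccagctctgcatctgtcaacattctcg
MNT: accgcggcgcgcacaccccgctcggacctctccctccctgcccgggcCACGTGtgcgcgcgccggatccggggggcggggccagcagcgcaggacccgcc
MLX: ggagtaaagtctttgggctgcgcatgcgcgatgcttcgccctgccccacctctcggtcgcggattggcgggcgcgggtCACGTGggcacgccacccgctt
MLXIPL: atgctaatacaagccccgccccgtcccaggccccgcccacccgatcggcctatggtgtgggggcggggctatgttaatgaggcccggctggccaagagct

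The libraries held 25356503 to 31679138 reads on the listed genes in DMSO and 21502760 to 24298627 in Tan I, recovered from the deposited normalized counts, which are read counts divided by a size factor for each library. On the first principal component of the genes tested, which carried 70.8% of the variance, the scores were -48.0, 41.1 and -26.7 for DMSO replicates 1 to 3 and -46.8, 8.65 and 71.6 for Tan I replicates 1 to 3, so that libraries of both groups lay at either end. Of the promyelocyte markers, 5 of 7 had a value, and their summed level ran from 70959 to 76923 in DMSO and from 41825 to 50123 in Tan I. MPO, the peroxidase of the primary granules, carried most of this sum, at 60389, 64107 and 63267 normalized counts in DMSO and 33279, 39450 and 37076 in Tan I. CTSG was also lower in each Tan I library, PRTN3 and AZU1 overlapped between the groups, and CD33 overlapped with means of 3712 in DMSO and 3903 in Tan I. The monocyte markers with a value lay between 2.67 and 38.5 normalized counts, ALAS2 alone stood for the erythroid list at 10.7 to 51.3, and the lymphoid markers ran from 8.67 for CD3E to 515 for CD3D. Among the megakaryocyte markers ITGA2B alone had a value, at 1060 to 1127 in DMSO and 1332 to 1418 in Tan I. The part of these marker differences in the results was not tested, and in bulk RNA fewer cells of a type and less RNA per cell cannot be told apart.

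Across the network, the 3 Tan I libraries all lay below the 3 DMSO libraries for MYC and MLXIPL and above them for MXD4, and the ranges of the other 7 genes overlapped. The log2 fold change, Tan I over DMSO on log2(normalized count + 1), was above 0 for 4 of the 10 and below 0 for 6, with a median of -0.01. Over all genes tested the median was -0.00, and 49.7% were above 0. Groups did not overlap in the lower direction for 2 members, against 3.97% of all genes tested, and in the higher direction for 1, against 3.92%. In limma, counting an unadjusted p of at most 0.05 with a log2 difference of 0.25 or more either way, 2 members were called lower, against 1.1% of all genes, and 0 were called higher, against 1.32%. These calls were 223 higher and 185 lower over all genes, and 188 higher and 250 lower when libraries were rescaled to the same total. The members were chosen with this contrast known, so nothing is read from these shares. With Benjamini-Hochberg adjustment limma called 0.0% of all genes, and 0 members, where 410 genes had an unadjusted p of at most 0.05 at any fold. The quasi-likelihood test of edgeR also called 0 genes after adjustment, and DESeq2 called 16, none of them a member.

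**Figure D1:**
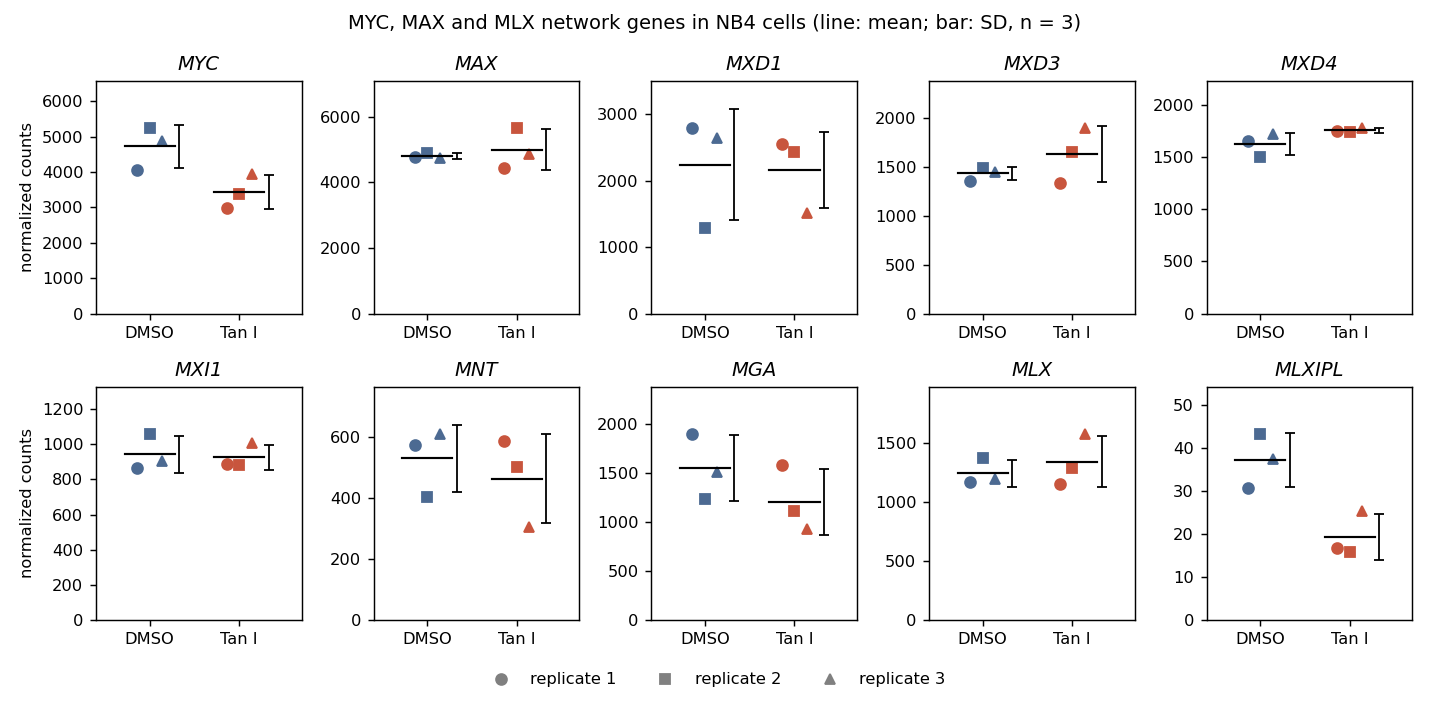
Normalized counts of the 10 network genes in each of the 3 DMSO (blue) and 3 Tan I (red) libraries, with 1 panel per gene and each vertical axis starting at 0. Marker shapes give the replicate number, lines the group mean and bars the SD (n = 3). The groups are apart for MYC, MLXIPL and MXD4 and overlap for the other 7 genes.

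MYC, the activator of the network, was transcribed from chromosome 8 at 127735434 to 127742951 on the plus strand of GRCh38. It had 4064, 5259 and 4870 normalized counts in DMSO replicates 1 to 3 and 2990, 3385 and 3958 in Tan I replicates 1 to 3. The lowest DMSO library, replicate 1, stood 106 normalized counts above the highest Tan I library, replicate 3. With 4731 ± 610 normalized counts for DMSO and 3444 ± 487 for Tan I on average (SD, n = 3), the level was 27.2% lower after Tan I, a log2 fold change of -0.46 (SE 0.15). Between 2968 and 6233 recovered reads stood behind each value, so counting error is small beside the spread between libraries. The log2 fold change of MYC was below 0 under all 17 alternatives tried, from -0.56 to -0.36.

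MAX is the obligate partner of MYC and also pairs with the MXD proteins, MNT and MGA. It had 4778, 4906 and 4734 normalized counts in DMSO and 4454, 5675 and 4881 in Tan I. The DMSO libraries lay close together, and Tan I replicates 1 and 2 fell on either side of them. The log2 fold change was 0.05 (SE 0.12), with means of 4806 ± 89.5 and 5003 ± 620, and it was -0.03 with quantile normalization and -0.01 with libraries rescaled to the same total. MLX, the hub of the glucose-responsive branch, had 1166, 1371 and 1191 normalized counts in DMSO and 1156, 1289 and 1579 in Tan I. Tan I replicate 3 was the highest of the 6 libraries and Tan I replicate 1 the lowest, and the log2 fold change was 0.10 (SE 0.15). The annotation places exons of other genes on the opposite strand of both hubs, FNTB over 13.1% of the exon bases of MAX and PSMC3IP over 18.2% of those of MLX, and the strand setting of the counting is not given in the sources used here.

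Among the repressors, MXD4 was the one whose groups did not overlap. It had 1650, 1504 and 1717 normalized counts in DMSO and 1745, 1736 and 1782 in Tan I. Every Tan I library was higher, but by only 19.1 normalized counts between the nearest libraries, and the log2 fold change was 0.11 (SE 0.11). MXD1, a repressor known to be induced as myeloid cells mature, had 2803, 1286 and 2647 normalized counts in DMSO and 2556, 2435 and 1514 in Tan I. Its largest and smallest DMSO libraries differed 2.18-fold, DMSO replicate 2 being the lowest of all, and the difference between groups of -0.01 on the log2 scale (SE 0.33) was far smaller than that spread. Leaving out DMSO replicate 2 gave -0.37 and leaving out Tan I replicate 3 gave 0.23, so the sign for MXD1 depended on 1 library.

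MXD3, an MXD protein known for its expression in cycling cells, had 1359, 1485 and 1449 normalized counts in DMSO and 1331, 1653 and 1899 in Tan I. Tan I replicates 2 and 3 were above all DMSO libraries and Tan I replicate 1 below them, with a log2 fold change of 0.17 (SE 0.15). RAB24 on the same strand shares 19.5% of the exon bases of MXD3 and PRELID1 on the opposite strand 24.2%, and how reads in these shared exons were counted is not given in the sources used here. MXI1, the remaining MXD family member, had 863, 1060 and 904 normalized counts in DMSO and 888, 884 and 1010 in Tan I. Its groups overlapped almost fully, at a log2 fold change of -0.02 (SE 0.13).

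MNT, a repressor that pairs with MAX in most cell types, was the least abundant of the 5, with 574, 404 and 610 normalized counts in DMSO and 586, 500 and 303 in Tan I. DMSO replicate 2 and Tan I replicate 3 were the low libraries, and the log2 fold change was -0.22 (SE 0.27). It was 0.05 without Tan I replicate 3 and -0.42 without Tan I replicate 1, so the sign for MNT also depended on 1 library. MGA, a very large protein with a T-box as well as the helix-loop-helix domain, joins MAX in the Polycomb complex PRC1.6. It had 1898, 1232 and 1510 normalized counts in DMSO and 1579, 1108 and 922 in Tan I. Tan I replicates 2 and 3 were below all DMSO libraries while Tan I replicate 1 was above DMSO replicates 2 and 3, giving a log2 fold change of -0.38 (SE 0.23). DMSO replicate 2 and Tan I replicate 3, the low libraries of MXD1, MNT and MGA within their groups, were also the libraries with the highest scores on the first principal component, 41.1 and 71.6. With that score as a covariate the log2 fold changes were 0.20 for MXD1, -0.06 for MNT and -0.23 for MGA. The same libraries were the highest within their groups for MYC, MXD3, MXI1, MLX and MLXIPL. With the covariate these were at -0.54 for MYC, 0.10 for MXD3, -0.07 for MXI1, 0.03 for MLX and -1.04 for MLXIPL.

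MLXIPL, known as ChREBP, activates lipogenic and glycolytic genes with MLX in liver. The gene lies on chromosome 7 at 73593194 to 73624543 on the minus strand of GRCh38. It had 30.8, 43.3 and 37.5 normalized counts in DMSO and 16.6, 15.8 and 25.3 in Tan I. All Tan I libraries were lower, the nearest libraries of the groups being 5.43 normalized counts apart. The means of 37.2 ± 6.29 and 19.3 ± 5.28 (SD, n = 3) are a level 48.3% lower in Tan I, and the log2 fold change was -0.93 (SE 0.31). Only 15 to 48 recovered reads stood behind each value, so counting error is a larger share of the spread than for MYC. Alternatives that kept the gene gave -1.14 to -0.70. Without DMSO replicate 2, DMSO replicate 3 or Tan I replicate 2, neither MYC nor MLXIPL met the unadjusted p and fold, and 0 members were called lower, against 1.04%, 0.486% and 0.492% of all genes. Without Tan I replicate 1 MLXIPL and MGA were called lower, against 4.54% of all genes, MYC was not, and MXD3 was called higher, against 4.32%.

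**Figure D2:**
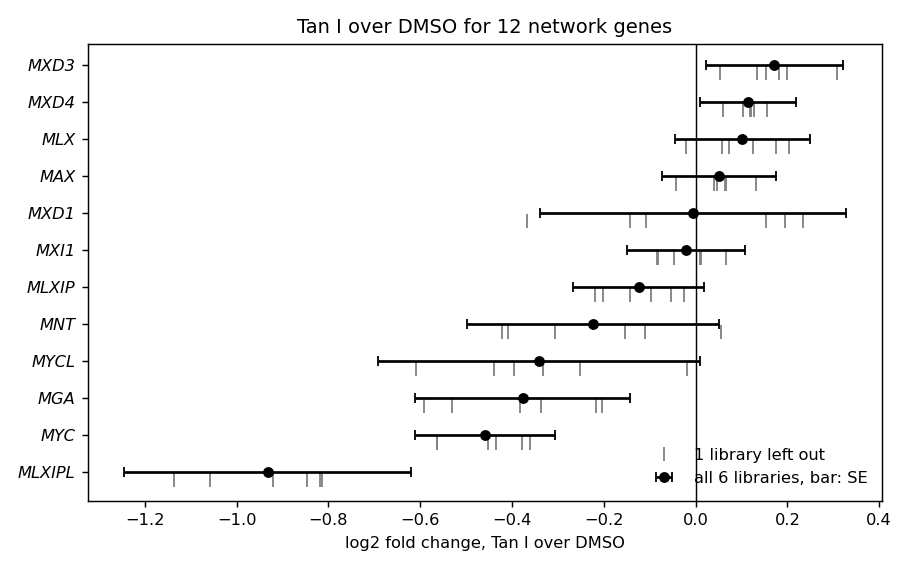
Log2 difference between Tan I and DMSO (Tan I over DMSO) for the 10 network genes and for MLXIP and MYCL. Points are the fit with all 6 libraries with bars of 1 SE, and grey ticks are the values with 1 library left out. All ticks of MYC, MLXIPL and MGA lie below 0, while those of MXD1 run from -0.37 to 0.23.

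The other genes of the network were MYCN, MYCL and MLXIP. MYCN was not analysed here. MYCL, a MYC paralog, was low at 27.0, 62.6 and 36.7 normalized counts in DMSO and 27.4, 35.8 and 30.7 in Tan I, and its groups overlapped (log2 fold change -0.34, SE 0.35, limma adjusted p = 0.999). MLXIP, the MLX partner that shuttles between mitochondria and nucleus, was abundant, with 2908, 2452 and 3086 normalized counts in DMSO and 2866, 2644 and 2246 in Tan I. Its groups overlapped too (log2 fold change -0.12, SE 0.14, limma adjusted p = 0.999).

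Levels were compared between genes as normalized counts per kb of exon in GENCODE 44, with the exons of all transcripts of a gene merged. Transcripts present in these cells may be shorter, so levels and ratios between genes are approximate. In DMSO, MYC at 774 ± 99.8 and MAX at 768 ± 14.3 normalized counts per kb led the order and overlapped each other. MXD1 at 354, MXD3 at 302 and MLX at 292 followed, with overlap between adjacent genes of these 3. Then came MXD4 at 236, MLXIP at 203 and MXI1 at 160. MGA at 77.0 and MNT at 60.8 were lower again, and MYCL at 8.48 and MLXIPL at 7.73 closed the order. MAX and MYC stood at percentiles 92.5 and 91.0 per kb among the genes tested and MLXIPL at 7.57.

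In Tan I, MAX at 800 ± 99.0 normalized counts per kb was first and MYC at 564 ± 79.7 was second, and their libraries no longer overlapped. MXD3 at 343, MXD1 at 341 and MLX at 315 followed, with overlap between adjacent genes of these 3. The rest kept the DMSO order, MXD4 at 255, MLXIP at 186, MXI1 at 157, MGA at 59.9, MNT at 53.2 and MYCL at 6.30, with MLXIPL last. In both groups MLXIP was the more abundant of the glucose-responsive partners of MLX, the MLXIP level per kb being 19.6 to 32.8 times that of MLXIPL in DMSO and 30.8 to 59.9 times in Tan I, ranges that overlapped.

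**Figure D3:**
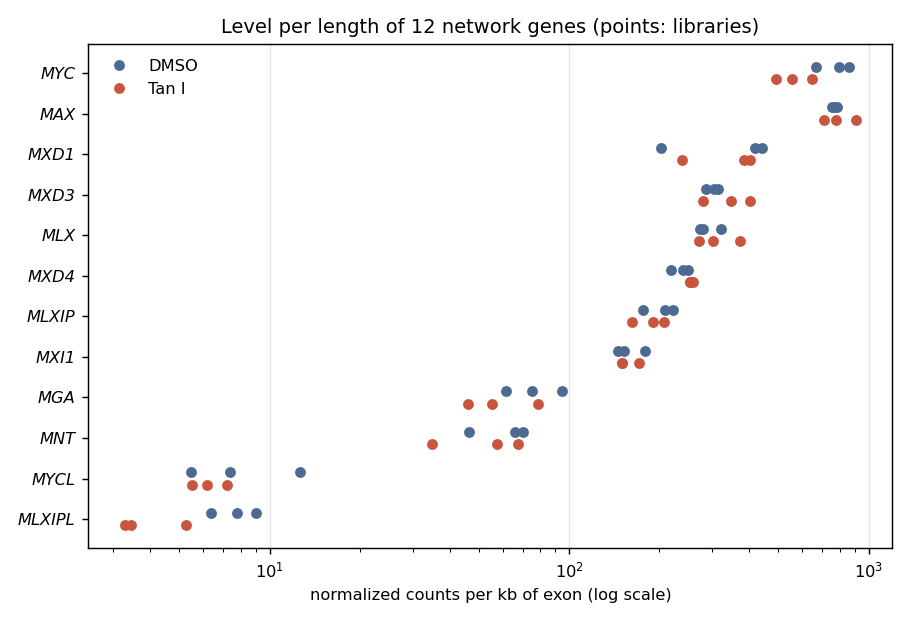
Normalized counts per kb of exon on a log axis for 12 network genes, ordered by their DMSO mean, with 1 point per DMSO (blue) and Tan I (red) library. MYC and MAX overlap in DMSO at 774 and 768 on average, and MYC lies below MAX in Tan I at 564 against 800.

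Because MYC and its antagonists share MAX, levels per kb were set against each other within each library. The MYC to MAX ratio was 0.871, 1.10 and 1.05 in DMSO and 0.688, 0.611 and 0.831 in Tan I. Each Tan I library had the lower ratio, with means of 1.01 ± 0.120 and 0.710 ± 0.111 (SD, n = 3). The ratio of MYC to the sum of the 5 repressors was 0.564, 0.896 and 0.667 in DMSO and 0.424, 0.465 and 0.587 in Tan I. These ranges overlapped through DMSO replicate 1 and Tan I replicate 3, with means of 0.709 ± 0.170 and 0.492 ± 0.0849. The repressor sum over MAX averaged 1.45 in both groups, and its libraries overlapped. These ratios compare RNA and not protein pairs, and they hold MYC values already described above.

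**Figure D4:**
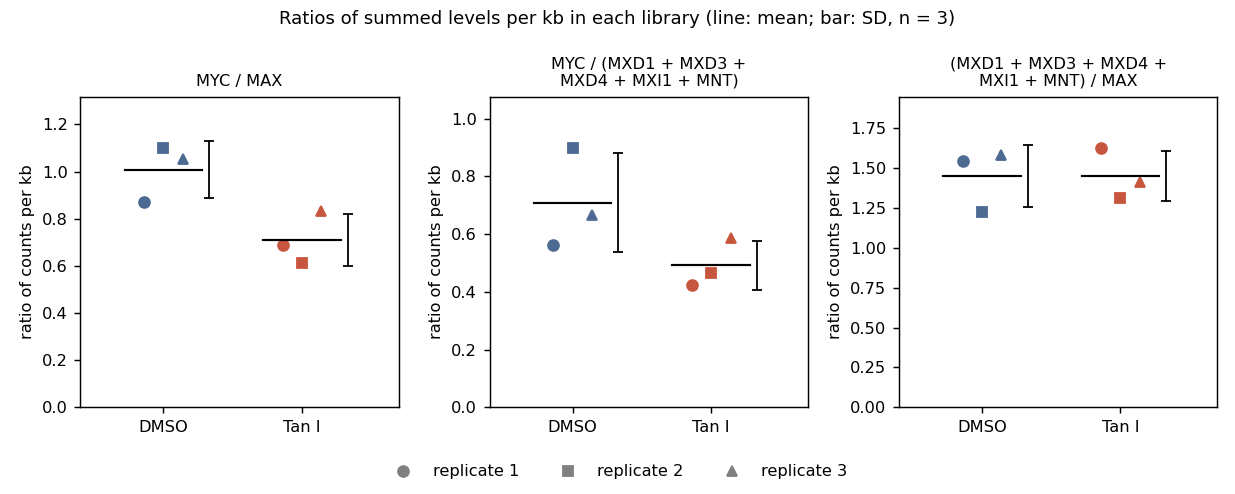
Ratios of normalized counts per kb in each library for MYC over MAX, MYC over the sum of 5 repressors, and that sum over MAX, with group means (lines) and SD (bars, n = 3) on axes that start at 0. The groups are apart for MYC over MAX, at means of 1.01 and 0.710, and overlap for the other ratios.

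The make-up of the repressor sum varied between libraries of both groups. MXD1 gave 21.1% to 37.4% of it and MXD3 24.3% to 36.3%. MXD4 gave 20.3% to 23.5%, MXI1 gave 12.4% to 18.7%, and MNT 3.15% to 5.87%. In DMSO replicate 2 and Tan I replicate 3 MXD3 was the largest share, at 32.6% and 36.3%, and in the other 4 libraries MXD1 was.

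Genes that act beside the network were read from lists drawn from general knowledge. No gene of any list had an adjusted p under 0.999 in limma with treatment as the single term, over all genes tested. DESeq2 called 1 promyelocyte marker with adjustment, against 16 of all 16887 genes. With the score on the first principal component as a covariate, 4 promyelocyte markers, 1 megakaryocyte marker and 2 proliferation genes were called. That fit also called 1 gene activated by MYC and 1 MLX target, against 194 of all genes. The covariate was computed from the same libraries. Of the 44 textbook genes activated by MYC, all had a value, 19 were higher and 25 lower in Tan I, and their median was -0.01 on the log2 scale, beside -0.00 over all genes tested. Without DMSO replicate 2 these were 29 higher and 15 lower at a median of 0.10, and with libraries rescaled to the same total 14 higher and 30 lower at -0.07. The lowest was TERT, the catalytic subunit of telomerase, with 1028, 992 and 959 normalized counts in DMSO and 773, 810 and 664 in Tan I. All Tan I libraries of TERT were lower (log2 fold change -0.41, SE 0.12, limma adjusted p = 0.999). TERT was the only 1 of the 44 past the unadjusted p and fold, against 1.1% of all genes called lower. This call was kept under all 17 alternatives. TFRC, the transferrin receptor, was next lowest at -0.25 (SE 0.14), and the highest were the mitochondrial chaperonin HSPE1 at 0.37 (SE 0.16) and the nucleoside diphosphate kinase NME1 at 0.34 (SE 0.24). All Tan I libraries of HSPE1 were higher, and the groups of TFRC and NME1 overlapped. In this list groups did not overlap for 3 genes in the lower direction and 2 in the higher, against 3.97% and 3.92% of all genes tested. NCL, NPM1 and FBL, abundant nucleolar proteins, were at -0.09 (SE 0.20), -0.01 (SE 0.22) and 0.03 (SE 0.25).

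Of 8 textbook genes repressed by MYC, 6 had a value, 5 of them higher and 1 lower in Tan I, at a median of 0.15 on the log2 scale. BTG2, an antiproliferative gene, had 131, 135 and 152 normalized counts in DMSO and 162, 208 and 223 in Tan I. Its Tan I libraries were all higher (log2 fold change 0.49, SE 0.18), and BTG2 was the only one of the 6 past the unadjusted p and fold, against 1.32% of all genes called higher. The call of BTG2 was lost without DMSO replicate 1, DMSO replicate 2, Tan I replicate 2 or Tan I replicate 3, at values of at least 0.40. The cell cycle inhibitors CDKN1A and CDKN1B were at 0.26 (SE 0.17) and -0.18 (SE 0.25), and NDRG2 was at 0.05 (SE 0.13). The proliferation list had 15 of 19 genes higher and a median of 0.10, which became 11 of 19 and 0.02 with quantile normalization and 12 of 19 and 0.04 with libraries rescaled to the same total. Its highest were RRM2, a ribonucleotide reductase subunit, at 0.45 (SE 0.18) and the mitotic cyclin CCNB1 at 0.38 (SE 0.12). Both had groups apart. They were the only 2 of the 19 past the unadjusted p and fold, against 1.32% of all genes called higher. The lowest of the list were the replication licensing factors MCM2 at -0.23 (SE 0.11) and MCM4 at -0.05 (SE 0.12). All Tan I libraries of MCM2 were lower, and the groups of MCM4 overlapped. In this list groups did not overlap for 5 genes in the higher direction and 1 in the lower, against 3.92% and 3.97% of all genes tested. The call of RRM2 was lost without DMSO replicate 1, DMSO replicate 3 or Tan I replicate 3 and without the variance trend, and that of CCNB1 without DMSO replicate 1.

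In the coactivators and partners of MYC, 8 of 14 genes were higher and 6 lower in Tan I, with 0 past the unadjusted p and fold and a median of 0.06 that was 0.00 with libraries rescaled to the same total. PAF1 at 0.15 (SE 0.20) and the acetyltransferase KAT2A at 0.12 (SE 0.13) were the highest, and the chromatin remodeling factors BPTF at -0.26 (SE 0.27) and EP400 at -0.14 (SE 0.27) the lowest. Factors that modify or degrade MYC protein were higher for 4 of 10 and lower for 6, at a median of -0.04. The mitotic kinase AURKA, known to stabilize MYC family proteins, had 2265, 2391 and 2338 normalized counts in DMSO and 2551, 2801 and 3354 in Tan I. AURKA was higher in every Tan I library (log2 fold change 0.31, SE 0.13). It was the only 1 of the 10 past the unadjusted p and fold, against 1.32% of all genes called higher. That call was lost under 9 of 17 alternatives, among them quantile normalization, rescaling to the same total and leaving out any 1 library except Tan I replicate 1, while the value stayed between 0.20 and 0.40. The ubiquitin ligase HUWE1 and the deubiquitinase USP28 were the lowest, at -0.22 (SE 0.32) and -0.16 (SE 0.13).

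On the repressive side, 7 of 12 SIN3-HDAC subunits were higher and 5 lower, with 0 past the unadjusted p and fold and a median of 0.03 that became -0.03 with libraries rescaled to the same total and -0.02 with quantile normalization. SAP18 at 0.17 (SE 0.21) and HDAC1 at 0.15 (SE 0.23) were the highest, and the scaffolds SIN3A at -0.13 (SE 0.11) and SIN3B at -0.10 (SE 0.15), which the MXD proteins and MNT bind directly, the lowest. Of the 9 PRC1.6 subunits that assemble with MGA and MAX, 7 were higher and 2 lower, with a median of 0.07 and 0 past the unadjusted p and fold. These were 5 and 4 with a median of 0.01 when libraries were rescaled to the same total, 4 and 5 with -0.01 without DMSO replicate 1, 9 and 0 with 0.13 without DMSO replicate 2, and 7 and 2 with 0.18 without Tan I replicate 1. YAF2 was at 0.20 (SE 0.15) and the ubiquitin ligase RNF2 at 0.11 (SE 0.13), and the DNA-binding pair TFDP1 and E2F6 were both at -0.09 (SE 0.14 and 0.18).

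Of 16 glucose-responsive targets of the MLX branch, 13 were in the table and 12 were tested, 6 of them higher and 6 lower, at a median of 0.00. The median ran from -0.10 without DMSO replicate 2, with 5 higher and 7 lower, to 0.13 without Tan I replicate 3, with 9 higher and 3 lower. TXNIP, a glucose-induced inhibitor of thioredoxin and the best known target of MLXIP with MLX, was very abundant at 57850, 44313 and 65380 normalized counts in DMSO and 60566, 65261 and 62410 in Tan I. Its groups overlapped (log2 fold change 0.19, SE 0.19). Malic enzyme ME1 was the only 1 of the 12 past the unadjusted p and fold, against 1.32% of all genes called higher. Its log2 fold change was 0.52 (SE 0.18), although its groups overlapped. It had 518, 734 and 559 normalized counts in DMSO and 724, 873 and 999 in Tan I. The call of ME1 was lost without DMSO replicate 1, DMSO replicate 3, Tan I replicate 2 or Tan I replicate 3. PNPLA3 at -0.68 (SE 0.45) and the acetyl-CoA carboxylase ACACB at -0.16 (SE 0.23) were the lowest.

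Other factors that bind E-boxes were higher for 5 of 9 and lower for 4, with 0 past the unadjusted p and fold and a median of 0.01 that became -0.05 with libraries rescaled to the same total. USF1, which binds CACGTG without MAX, was at 0.29 (SE 0.13), and TFEC, at 6.25 to 38.1 normalized counts, was at 0.81 (SE 0.58). The sterol regulators SREBF1 and SREBF2 were both at -0.07 (SE 0.11). In the granulocyte maturation list 8 of 14 genes had a value, 3 higher and 5 lower, with a median of -0.01 that ran from -0.15 without DMSO replicate 1 to 0.16 without DMSO replicate 2 and was 0.05 with quantile normalization. The granulocyte factor CEBPE was at -0.12 (SE 0.27) and the receptor CSF3R at -0.19 (SE 0.13), while S100A9 at 0.51 (SE 0.34) and CXCR2 at 0.49 (SE 0.60) were low, at no more than 34.7 normalized counts.

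**Figure D5:**
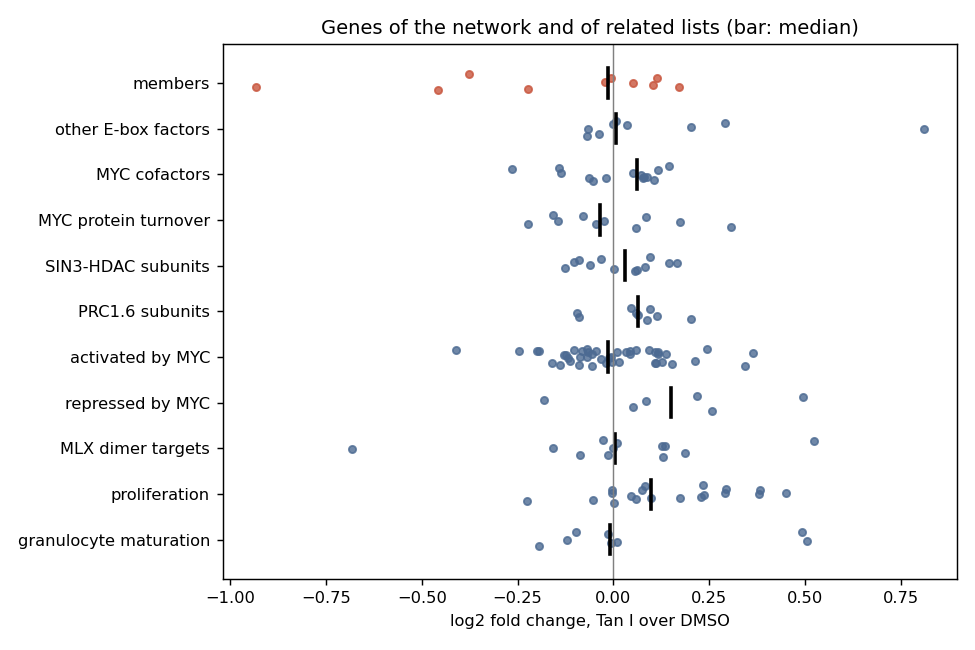
Log2 difference between Tan I and DMSO (Tan I over DMSO) for each tested gene of the network (red) and of 10 related lists (blue), with black bars at the list medians and points spread vertically for sight only. MLXIPL, at -0.93, is the lowest point in the network, and the medians lie between -0.04 and 0.15.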

How the data were processed

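RNA-seq libraries of NB4 cells (3 of DMSO and 3 of Tan I) were grouped by the sample labels. STAR was used by the authors for alignment to GRCh38, reads with more than 1 location were dropped, and featureCounts and DESeq2 followed; versions, annotation release and strand setting are not given in the sources used here. The per-library signal values deposited by the authors are read counts divided by a size factor for each library. The authors also deposited their own comparison, as log2 fold changes, their standard errors, a test score and p-values, which was not used. Of the per-sample columns, 0 were left unmapped.

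All values (100%) were whole multiples of 1 read within 0.001 reads, so reads were recovered. Limma 3.58.1 in R 4.3.3 (trend) was fitted on log2(normalized count + 1), treatment being the single term, to 16887 genes with a mean of at least 10; 1738 were left out. P-values were adjusted by Benjamini-Hochberg over all genes tested, and called at 0.05 together with a log2 difference of 0.25 or more either way. They measure the spread between these libraries only. The fit was also run on simulated counts drawn independently for each library. These held no component shared between libraries, unlike the data, so nothing is read from that run here. Levels per kb used exon lengths and positions from GENCODE 44, which held 99.6% of the identifiers. Promoter windows came from RefSeq.

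The network genes and all lists were chosen with earlier results of these data known. Named from each list were the 2 highest and 2 lowest log2 fold changes, except 1 gene that is not reported here; NCL, NPM1 and FBL were named besides, after their values were seen. Alternatives were pseudocounts of 0.1 and 10, quantile normalization, rescaling to the same total, no filter or a minimum mean of 50, eBayes without trend, edgeR 4.0.16 and DESeq2 1.42.0 on recovered reads, a replicate block, the first principal component as a covariate, and each library left out.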

Additional observations from a re-analysis of the deposited data

How the results depend on the processing

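Across 17 alternatives, 24 results gave 406 values, of which 19 moved by the spread between replicates (1 SD; 1.5 times for counts of genes) or more. The other 387 include changes of sign, as for MXD1 (-0.37 to 0.23) and MNT (-0.42 to 0.05), whose spread is wide. MLXIPL and MYCL had no value with a mean of at least 50. The 408 genes called without adjustment became 1496 with the score on the first component as covariate, and 160 to 1496 with 1 library left out (fewest without Tan I replicate 2, most without Tan I replicate 1). The 0 genes called with adjustment became 16 in DESeq2 and 194 with that covariate, where MYC was the 1 member called, against 0.367% of all genes called lower. That covariate was computed from the same 6 libraries, and MYC was chosen with this contrast known, so nothing is read from its call. The cause of these changes in the counts was not tested. Labels share replicate numbers. Deviations of same-numbered libraries from their group means correlated at 0.751, -0.0881 and -0.451. With 3 libraries per group and 70.8% of the variance on 1 component, these values cannot decide whether same-numbered libraries were paired. With the replicate block 348 genes were called without adjustment, 3 of them members (MYC, MGA and MLXIPL, all lower, against 0.918% of all genes called lower), and 0 with adjustment. With 1 library left out, list medians ran from -0.0702 to 0.13 for other E-box factors, from -0.11 to 0.0024 for MYC turnover, from -0.0670 to 0.0455 for SIN3-HDAC subunits, from -0.0489 to 0.10 for genes activated by MYC and from 0.0925 to 0.23 for proliferation. Rescaling to the same total gave -0.0530 for other E-box factors and -0.0299 for SIN3-HDAC subunits, and quantile normalization gave -0.0188 for the latter. Depth limits MLXIPL and MYCL, with 15 to 65 reads in a library.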
